A study of Mus musculus with 8 samples.

Results

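The genes described here are 9 members of the bone morphogenetic protein (BMP) system, 5 ligand genes (Bmp2, Bmp3, Bmp4, Bmp7 and Gdf10) and 4 genes of secreted antagonists or related binding proteins (Grem1, Chrdl1, Fst and Fstl1). They were chosen by gene symbol, with earlier results of these data known. The bead array carried 12 probes for them among 34885 probes with a gene symbol. A probe was kept where its detection p, the deposited test of signal above background, was under 0.05 on at least 4 of the 8 arrays. By this rule 9 of the 12 probes and 7 of the 9 genes were kept, 3 ligands and all 4 antagonists, among 10724 genes kept in all. The cells were stromal progenitors of epididymal white fat from lean, chow-fed C3H/HeOuJ mice aged 3 months, with no transgene or treatment named in either group. They were sorted as negative for CD45 (leukocytes) and CD31 (endothelium) and positive for Gp38 and PDGFRα, and collected as CD9high and CD9low cells with 4 samples each. For the CD9low samples 1 label field speaks of high CD9, and the gate text gives the CD9high gate for both fractions, so that titles and cell type labels were followed. Whether the samples of a fraction were separate mice or pools is not given in the labels, so a p-value here reflects no more than the spread among these arrays.

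BMPs are secreted dimers of the TGF-beta superfamily that bind pairs of type I and type II serine/threonine kinase receptors and act through Smad1, Smad5 and Smad9. Secreted antagonists bind the ligands outside the cell and keep them from their receptors, so that the ligand and antagonist genes a tissue expresses together set the signal. In adipose tissue, Bmp4 and Bmp2 are known to commit mesenchymal precursors to the fat lineage, and Bmp7 is known for promoting brown adipocyte formation.

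Values are normalized log2 intensities of single probes, so a level is compared between fractions and never between genes. A difference is CD9high minus CD9low on this log2 scale, with its standard error (SE), and p-values are adjusted over all 10724 genes. The labels do not say that equal replicate numbers share mice. Gaps between same-numbered arrays are therefore given as descriptions only. Between 41.1% and 51.1% of the 45281 probes were above background per array. Cd9 itself, the sort gene, read 8.56, 8.55, 8.27 and 8.37 in CD9high, against 5.40, 4.36, 5.08 and 4.37 in CD9low (replicates 1 to 4), in accord with the titles on every array. CD9low replicate 2 stood apart: it had the fewest probes above background (18618) and a root mean square deviation of 0.95 log2 units from the mean of the other CD9low arrays, against 0.48 to 0.49 for those arrays. CD9high replicate 2 was the farthest of its fraction, at 0.70 against 0.44 to 0.56. In CD9low replicate 2 the summed level of 5 measured leukocyte markers was 10.93 on the log2 scale, that of 6 endothelial markers 11.82 and that of 8 mural cell markers 12.30, each the highest of the 8 arrays. Such a sum adds linear intensities and is weighted to bright genes. Lyz2 (10.46), Cldn5 (11.18) and Des (11.41) were highest on that array, but not every marker was. Adgre1 read 7.15 there and 7.97 in CD9high replicate 2. Tek read 9.32 and Rgs5 10.52 there, against 9.98 and 11.04 in CD9low replicate 3. Over the 4 arrays of a fraction the leukocyte sum ran from 8.02 to 10.59 in CD9high and from 7.62 to 10.93 in CD9low. The endothelial sum ran from 10.26 to 10.79 in CD9high and from 10.11 to 11.82 in CD9low, and the mural sum from 11.34 to 11.78 in CD9high and from 11.60 to 12.30 in CD9low. Of 4 measured mesothelial markers the sums ran from 7.34 to 8.21 in CD9high and from 6.87 to 7.82 in CD9low, and Upk1b and Krt19 were not above background on any array. In the 4 measured adipocyte markers they ran from 7.80 to 9.19 in CD9high and from 7.97 to 9.14 in CD9low, with Plin1 and Cidea not above background on any array. Of the 7 measured progenitor markers, Pdgfra and Pdpn of the gate among them, 0 passed limma's test and 1 had an unadjusted p under 0.05; their sum ran from 13.79 to 14.21 in CD9high and from 13.88 to 14.31 in CD9low. Where leaving out these arrays moves a member's result, both values are given below. In such bulk samples fewer expressing cells and less RNA per cell cannot be told apart.

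Promoters are shown to set the letters of Smad elements and of a GC box beside genes that did and did not pass the test. RefSeq windows (GRCm38.p6) matched 4 of the 9 members, Bmp4, Gdf10, Grem1 and Fstl1. The windows of the ligands Bmp4 and Gdf10 and of the antagonist Grem1 are printed, with those of Nbl1 and Id2, pathway genes that passed the test below. Windows of Gata2 and Bmpr1b, which also passed, are not given, so those shown do not stand for all genes that passed. Each is the 250 bases before the annotated start, 5′ to 3′ on the gene's strand. Capitals mark every match on either strand to GGCGCC (a GC-rich Smad element), CAGAC (a Smad box) or GGGCGG (a GC box of the Sp family).
Bmp4, chr14:46390670-46390919, minus strand: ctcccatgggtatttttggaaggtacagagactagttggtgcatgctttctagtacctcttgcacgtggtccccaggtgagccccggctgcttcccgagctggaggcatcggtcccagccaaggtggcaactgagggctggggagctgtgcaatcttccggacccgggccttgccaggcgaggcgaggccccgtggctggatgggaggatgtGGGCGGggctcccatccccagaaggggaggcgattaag
Gdf10, chr14:33923337-33923586, plus strand: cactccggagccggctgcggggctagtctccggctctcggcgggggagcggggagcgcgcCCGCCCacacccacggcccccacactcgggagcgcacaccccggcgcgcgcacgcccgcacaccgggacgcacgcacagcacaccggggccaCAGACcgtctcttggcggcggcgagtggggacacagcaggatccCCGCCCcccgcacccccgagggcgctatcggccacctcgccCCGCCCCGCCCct
Grem1, chr2:113758649-113758898, minus strand: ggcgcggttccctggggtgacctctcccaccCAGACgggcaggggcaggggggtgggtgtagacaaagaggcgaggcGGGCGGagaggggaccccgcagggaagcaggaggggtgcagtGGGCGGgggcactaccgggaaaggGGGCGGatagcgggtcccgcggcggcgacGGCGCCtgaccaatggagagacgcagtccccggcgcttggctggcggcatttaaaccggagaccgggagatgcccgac
Nbl1, chr4:139092971-139093220, minus strand: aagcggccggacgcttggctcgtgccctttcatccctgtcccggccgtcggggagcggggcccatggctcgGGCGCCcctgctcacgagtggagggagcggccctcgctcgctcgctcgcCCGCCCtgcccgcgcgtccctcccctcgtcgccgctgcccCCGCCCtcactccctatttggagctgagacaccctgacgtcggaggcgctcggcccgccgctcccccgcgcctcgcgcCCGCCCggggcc
Id2, chr12:25096093-25096342, minus strand: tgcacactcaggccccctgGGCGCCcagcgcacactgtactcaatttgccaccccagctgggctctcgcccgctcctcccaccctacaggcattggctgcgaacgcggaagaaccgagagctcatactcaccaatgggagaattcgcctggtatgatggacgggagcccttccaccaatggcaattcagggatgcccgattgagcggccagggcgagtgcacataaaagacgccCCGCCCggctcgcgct
The 3 motifs shared no base with each other in these windows. GGCGCC stood once in each of the Grem1, Nbl1 and Id2 windows and in neither of the Bmp4 and Gdf10 windows, and 9.59% of all 32851 RefSeq windows of this length held it. CAGAC stood once in the Gdf10 window and once in the Grem1 window (42.2% of all windows). GGGCGG stood once in Bmp4 and Id2, 3 times in Grem1 and Nbl1 and 4 times in Gdf10 (32.7% of all windows). The Fstl1 window, not printed, held no GGCGCC. The printed windows were 62.8% to 78.8% G and C, against a median of 52.4% over all windows. The shares over all windows are thus no like background for GC-rich motifs in these few chosen windows. These are descriptions of letters, and a window without a match says nothing of a factor.

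None of the 7 measured members passed an adjusted p of 0.05 between CD9high and CD9low progenitors, in limma's test over all genes, where 1.69% of all tested genes did (1.13% higher and 0.559% lower in CD9high). The largest differences were those of Bmp7, a ligand, and Chrdl1, an antagonist, and both were higher on every CD9high array than on any CD9low array. At an unadjusted p under 0.05, again these 2 of the 7 members were counted, both higher in CD9high, beside 10.7% of all genes in either direction. The fractions did not overlap for 2 of 7 members, both higher in CD9high, beside 7.69% of all genes (3.92% higher and 3.78% lower). Among the 9 member probes they did not overlap for 3, the kept Bmp7 probe and both Chrdl1 probes, beside 6.8% of all probes. The Chrdl1 probe ILMN_2661755 was kept through its CD9high arrays alone and could differ in 1 direction only, so its count here is no support. The kept Bmp7 probe and the other Chrdl1 probe were above background on 4 CD9high arrays each, but on 2 and 1 CD9low arrays. They too met the detection rule only with their CD9high arrays, so the counts of 2 of 7 members are no support either. The median difference was 0.03 over the 3 ligands and 0.68 over the 4 antagonists, against -0.04 over all genes. With so few members, chosen with earlier results of these data known, these counts and medians are a description only. The plot of values by array shows every probe, kept or not, with the replicate numbers, so that arrays standing apart can be followed from gene to gene.

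**Figure D1:**
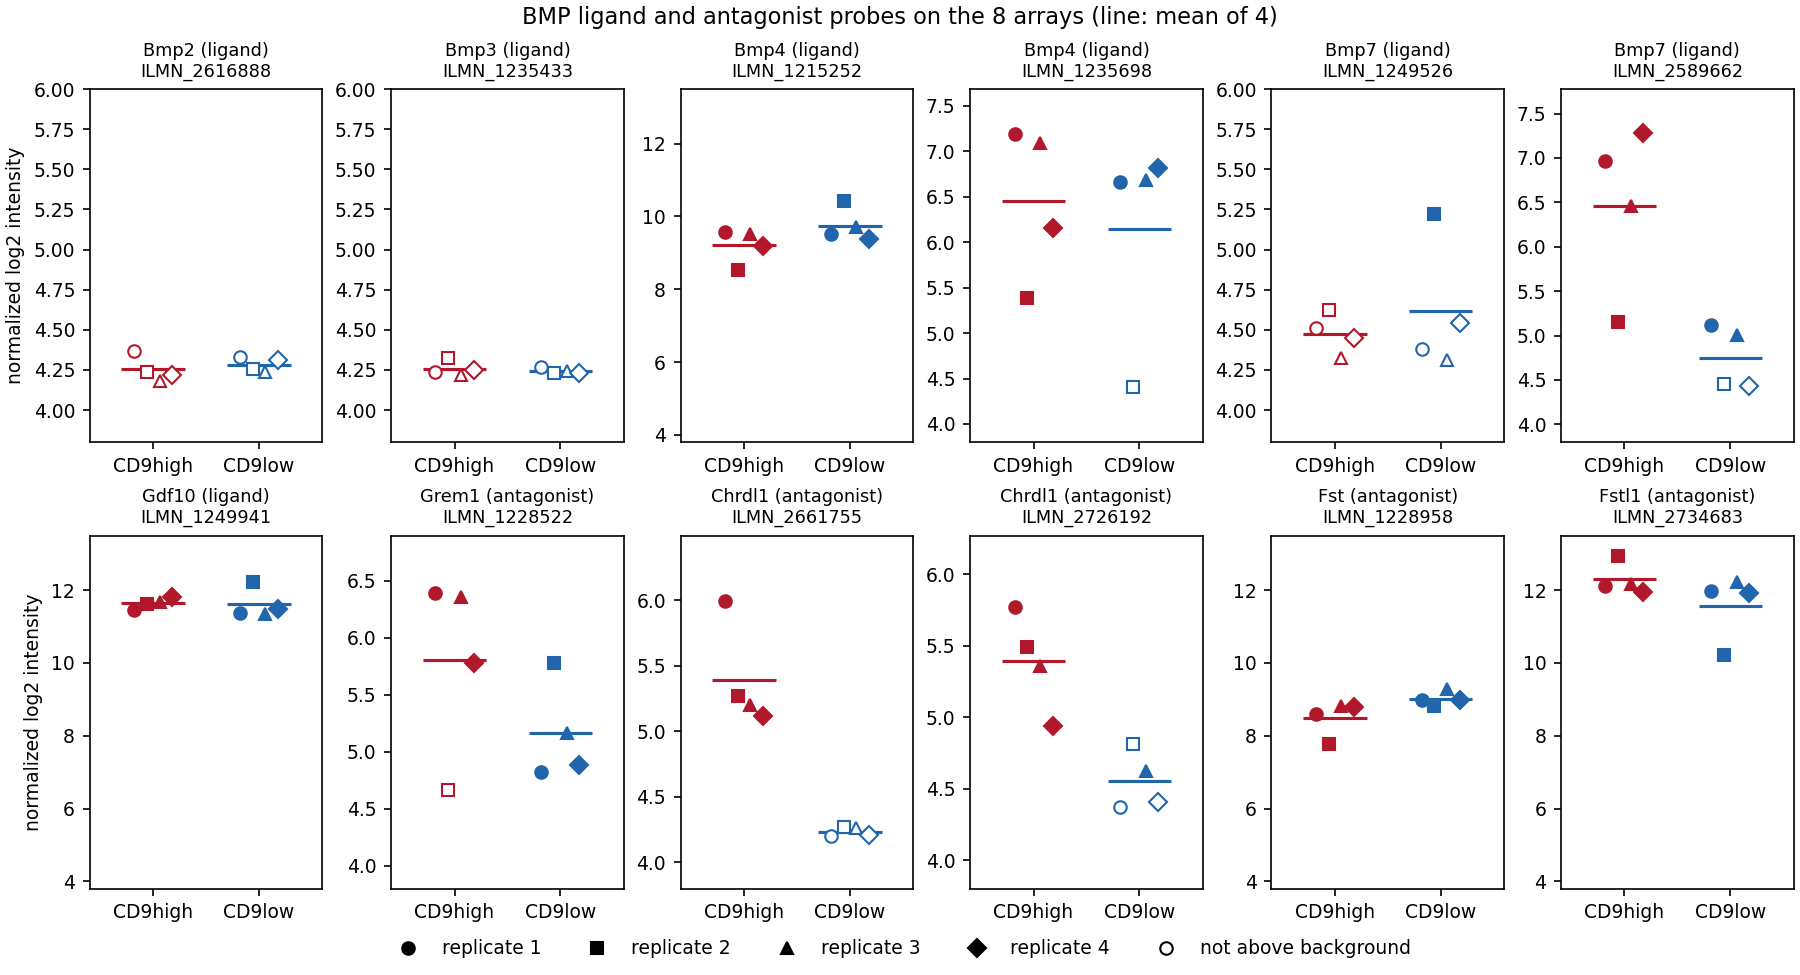
Normalized log2 intensity (y axis, its range differing between panels) of the 12 probes of the 9 genes on the 4 CD9high (red) and 4 CD9low (blue) arrays, with the mean as a line, the replicate number as the symbol shape and open symbols where the probe was not above background. Bmp2 and Bmp3 lie at background on all 8 arrays, the kept Bmp7 probe and both Chrdl1 probes are higher in CD9high without overlap, and replicate 2 of both fractions lies apart for Bmp4, Grem1 and Fstl1, as does CD9low replicate 2 alone for Gdf10.

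Among the ligands, Bmp7 showed the largest difference. Its kept probe, ILMN_2589662, read 6.97, 5.16, 6.46 and 7.28 in CD9high (replicates 1 to 4), against 5.12, 4.46, 5.00 and 4.43 in CD9low. The 4 CD9high readings exceeded all 4 CD9low readings, CD9high replicate 2 only just so, and the probe was above background on 4 CD9high arrays and 2 CD9low arrays. The means were 6.46 ± 0.93 in CD9high and 4.75 ± 0.36 in CD9low (SD, n = 4 each). The difference was 1.71 (SE 0.42, adjusted p = 0.0872 by limma), with a 95% interval of 0.78 to 2.64, and it ranked 246th of the 10724 genes by p. Within slide 1, which held replicates 1 to 3 of both fractions, the difference was 1.33, and on slide 2, with replicate 4, it was 2.85. Bmp7 passed without CD9high replicate 2 (difference 2.15, adjusted p = 0.0110) and without replicate 2 of both fractions (2.05, adjusted p = 0.00614), and not without CD9low replicate 2 alone (1.61, adjusted p = 0.136). The second Bmp7 probe, ILMN_1249526, was above background on 1 array only, CD9low replicate 2, at a detection p of 0.0182, and was not kept; it gives no reading of Bmp7 in CD9high.

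Bmp4, the ligand best known for committing precursors to the fat lineage, was above background in both fractions. Its brighter probe, ILMN_1215252, read 9.57, 8.54, 9.52 and 9.20 in CD9high, against 9.51, 10.42, 9.70 and 9.37 in CD9low. The fractions overlapped, and their largest gap was that between the replicate 2 arrays. The difference was -0.54 (SE 0.31, adjusted p = 0.592), with a 95% interval of -1.24 to 0.15, and without replicate 2 of both fractions it was -0.10 (adjusted p = 0.948). The 2 Bmp4 probes disagreed in sign. The dimmer one, ILMN_1235698, read 7.18, 5.38, 7.10 and 6.15 in CD9high against 6.67, 4.40, 6.69 and 6.82 in CD9low, where replicate 2 was the only array not above background. The difference on this probe was 0.31 (SE 0.56, adjusted p = 0.895 over all probes). Without CD9low replicate 2 its difference was -0.27. That array was thus the highest of the 8 on the brighter probe and the lowest of the 8 on the dimmer one.

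Gdf10, also called BMP3b, is a close relative of Bmp3 that differs from the classical BMPs in its receptors. It was read by ILMN_1249941 at 11.46, 11.63, 11.68 and 11.81 in CD9high, against 11.38, 12.23, 11.35 and 11.48 in CD9low. All readings but that of CD9low replicate 2 lay within a narrow range, and that array was the highest. The means were 11.64 ± 0.14 in CD9high and 11.61 ± 0.42 in CD9low (SD, n = 4 each). The difference was 0.03 (SE 0.25, adjusted p = 0.978), with a 95% interval of -0.52 to 0.59. Its sign was not stable: without CD9low replicate 2 the difference was 0.24 (adjusted p = 0.801), and on slide 1 alone it was -0.06 (adjusted p = 0.958), against 0.33 between the arrays of slide 2.

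Bmp2 and Bmp3 were not above background on any of the 8 arrays and were not tested. Bmp2, like Bmp4 a ligand that promotes fat cell commitment, had a lowest detection p of 0.368 over the 8 arrays, and Bmp3, which can oppose BMP signalling, one of 0.566. The readings of Bmp2 spanned 4.18 to 4.37 and those of Bmp3 4.22 to 4.32, with both fractions mixed. Each gene was represented by 1 probe, so that no second probe could be set beside this reading. At the edge of the detection rule, the Bmp7 probe left out was above background on 1 array, and the Chrdl1 probes kept were above background on 4 and 5 arrays.

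Among the antagonists, Chrdl1 (chordin-like 1), whose product binds BMP ligands through chordin-type repeats, differed most by p. The brighter probe, ILMN_2726192, read 5.77, 5.49, 5.36 and 4.94 in CD9high (replicates 1 to 4), against 4.37, 4.82, 4.63 and 4.40 in CD9low. The fractions did not overlap, although the lowest CD9high array and the highest CD9low array lay close together. It was above background on 4 CD9high arrays and on 1 CD9low array, at 5.39 ± 0.35 and 4.55 ± 0.21 (CD9high and CD9low; SD, n = 4 each). The difference was 0.84 (SE 0.24, adjusted p = 0.164), with a 95% interval of 0.30 to 1.37; within slide 1 it was 0.94 and on slide 2 it was 0.54. The second Chrdl1 probe, ILMN_2661755, read 5.99, 5.27, 5.20 and 5.12 in CD9high, against 4.20, 4.27, 4.26 and 4.21 in CD9low. It was not above background on any CD9low array and was therefore kept through the CD9high arrays alone. The measured means of this probe were 5.39 in CD9high and 4.23 in CD9low, and as a bound Chrdl1 was at least 1.53-fold higher in CD9high. It did not pass (adjusted p = 0.0538 over all 18085 probes, of which 1.22% passed). Such a bound sets the CD9high mean against the dimmest signal above background on the CD9low arrays, and it leaves out the spread among arrays. Both probes of the gene thus read higher in CD9high on all arrays. The direction of the second was set by how it was kept, so it does not back that of the first. Over all 22 alternatives the gene's adjusted p ran from 0.0196 to 0.431 and passed in 3, of which 2 drew on the second probe, which could be read in 1 direction only.

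Grem1 encodes gremlin, an antagonist of Bmp2, Bmp4 and Bmp7. Its probe, ILMN_1228522, read 6.40, 4.67, 6.36 and 5.78 in CD9high, against 4.82, 5.78, 5.16 and 4.88 in CD9low. In replicates 1, 3 and 4 CD9high was the higher, whereas in replicate 2 it was the lower and not above background. The difference was 0.64 (SE 0.39, adjusted p = 0.623), with a 95% interval of -0.23 to 1.51. Without CD9low replicate 2 it was 0.85 and did not pass, without CD9high replicate 2 it was 1.02 (adjusted p = 0.228), and without both, a setting chosen after the arrays had been seen, it was 1.22 and passed (adjusted p = 0.0296). On slide 1 the difference was 0.55 and on slide 2 it was 0.90.

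Fst encodes follistatin, which binds activins tightly and BMPs more weakly. Its probe, ILMN_1228958, read 8.61, 7.77, 8.81 and 8.78 in CD9high, against 8.98, 8.81, 9.29 and 8.98 in CD9low. CD9high was the lower fraction in all 4 replicate numbers, but the ranges overlapped by the highest CD9high array. The means were 8.49 ± 0.49 in CD9high and 9.01 ± 0.20 in CD9low (SD, n = 4 each). The difference was -0.52 (SE 0.27, adjusted p = 0.549), with a 95% interval of -1.13 to 0.09, and without CD9high replicate 2 it was -0.28 (adjusted p = 0.810).

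Fstl1 encodes a secreted glycoprotein of the follistatin family, whose antagonism of Bmp4 is known from the developing mouse lung. Its probe, ILMN_2734683, read 12.12, 12.94, 12.18 and 11.94 in CD9high, against 11.97, 10.21, 12.21 and 11.91 in CD9low. In replicates 1, 3 and 4 the fractions lay within 0.15, -0.04 and 0.03 of each other (CD9high minus CD9low), and in replicate 2 they were 2.73 apart. The difference over all arrays was 0.72 (SE 0.43, adjusted p = 0.608), with a 95% interval of -0.23 to 1.66. Without CD9low replicate 2 it was 0.26 (adjusted p = 0.867), and without replicate 2 of both fractions it was 0.05 (adjusted p = 0.975). The mean difference of Fstl1 thus rested on the replicate 2 arrays.

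The replicate 2 arrays lay on opposite sides of the other arrays for 3 of these genes. CD9high replicate 2 was the lowest of its fraction for Bmp4 (brighter probe) and Grem1 and the highest for Fstl1, and CD9low replicate 2 was the highest of its fraction for Bmp4 and Grem1 and the lowest for Fstl1. The part that the other cell type markers given above for CD9low replicate 2 had in this was not tested. In the plot of the 7 differences, the values of Bmp4, Fstl1 and Grem1 move most when these arrays are left out, Bmp4 and Fstl1 towards 0 and Grem1 away from it.

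**Figure D2:**
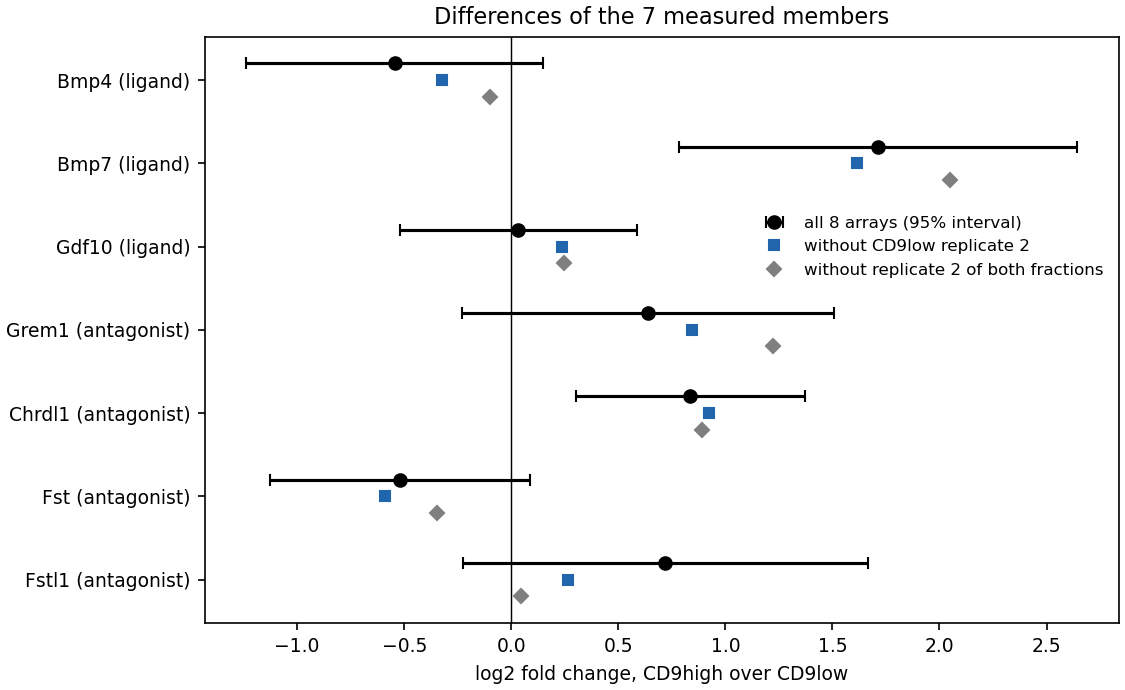
Log2 fold changes of CD9high over CD9low (x axis) for the 7 measured genes, with the 95% interval over all 8 arrays (black), and the values without CD9low replicate 2 (blue squares) and without replicate 2 of both fractions (grey diamonds). Bmp7 and Chrdl1 have intervals above 0, from 0.78 to 2.64 and from 0.30 to 1.37, while Bmp4 and Fstl1 move to -0.10 and 0.05 without replicate 2.

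The other genes of the pathway were read from 5 lists by role. Of 92 genes listed, 82 had a named probe and 49 were measured. Of these 49, 4 rose in CD9high, 0 fell and 45 did not pass (the plot by role shows each gene), that is 8.16% called against 1.69% of all genes. Bmpr1b and Gdf6 were above background in CD9high only and could be called in 1 direction alone; without these 2 genes, 3 of 47 were called (6.38%). The 4 were Nbl1, a secreted antagonist, Bmpr1b, a type I BMP receptor, and Gata2 and Id2, listed as BMP target genes. Their calls were lost when certain single arrays were left out. Without CD9high replicate 1 or 3, or without CD9low replicate 1, 3 or 4, 0 of the 4 passed; without CD9high replicate 2 Gata2 alone passed, and without CD9high replicate 4 Bmpr1b alone. Without CD9low replicate 2 the 4 passed again and Bmper, an extracellular BMP regulator, passed as a decrease in CD9high. With the replicate number as a block in the fit, 0 of the 4 passed. The lists were drawn up with earlier results on these samples known, and Gata2 had been named as a rising gene in them.

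Nbl1, which encodes the BMP-binding protein Dan of the gremlin family, showed the largest difference of the 4. It read 10.23, 10.05, 10.16 and 10.72 in CD9high, against 7.87, 9.42, 7.48 and 8.58 in CD9low. All CD9high arrays were higher, and CD9low replicate 2 was the nearest to them. The difference was 1.95 (SE 0.39, adjusted p = 0.0373), 1.89 within slide 1 and 2.14 on slide 2. Its second probe differed by 2.63 (SE 0.26, adjusted p = 0.000879 over all probes). Of the 10 measured genes of this list of other secreted antagonists and extracellular modulators, 1 rose, 0 fell and 9 missed the threshold, and the median difference was 0.15. The next by p were Fstl3, a follistatin-like inhibitor of activin (1.02, adjusted p = 0.227), and Bmper (-0.85, adjusted p = 0.351). Without CD9low replicate 2 the difference of Bmper was -1.18 (adjusted p = 0.0140).

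Bmpr1b was the only called gene among 13 measured receptors and co-receptors. It read 5.76, 5.95, 5.61 and 5.08 in CD9high, against 4.42, 4.59, 4.33 and 4.35 in CD9low, where it was not above background on any array. The measured means were 5.60 in CD9high and 4.42 in CD9low (adjusted p = 0.0392 by limma). Set against the dimmest signal above background on the CD9low arrays (mean 4.78), Bmpr1b was at least 1.76-fold higher in CD9high. Having been kept through its CD9high arrays alone, it could be read in 1 direction only, and its other 3 probes were above background on at most 1 array each. The common receptors Bmpr1a, Bmpr2 and Acvr1 differed by 0.01, 0.23 and -0.08 (adjusted p of 0.994, 0.783 and 0.934). The activin type II receptors Acvr2b and Acvr2a differed by -1.68 and -0.81 (adjusted p of 0.322 and 0.440). Without CD9low replicate 2 Acvr2b differed by -1.12 (adjusted p = 0.435) and Acvr2a by -1.11 (adjusted p = 0.0981). Without that array Bmpr1a, near 0 on all arrays, differed by -0.12 and Bmpr2 by 0.06. The median of the receptor list was 0.00.

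**Figure D3:**
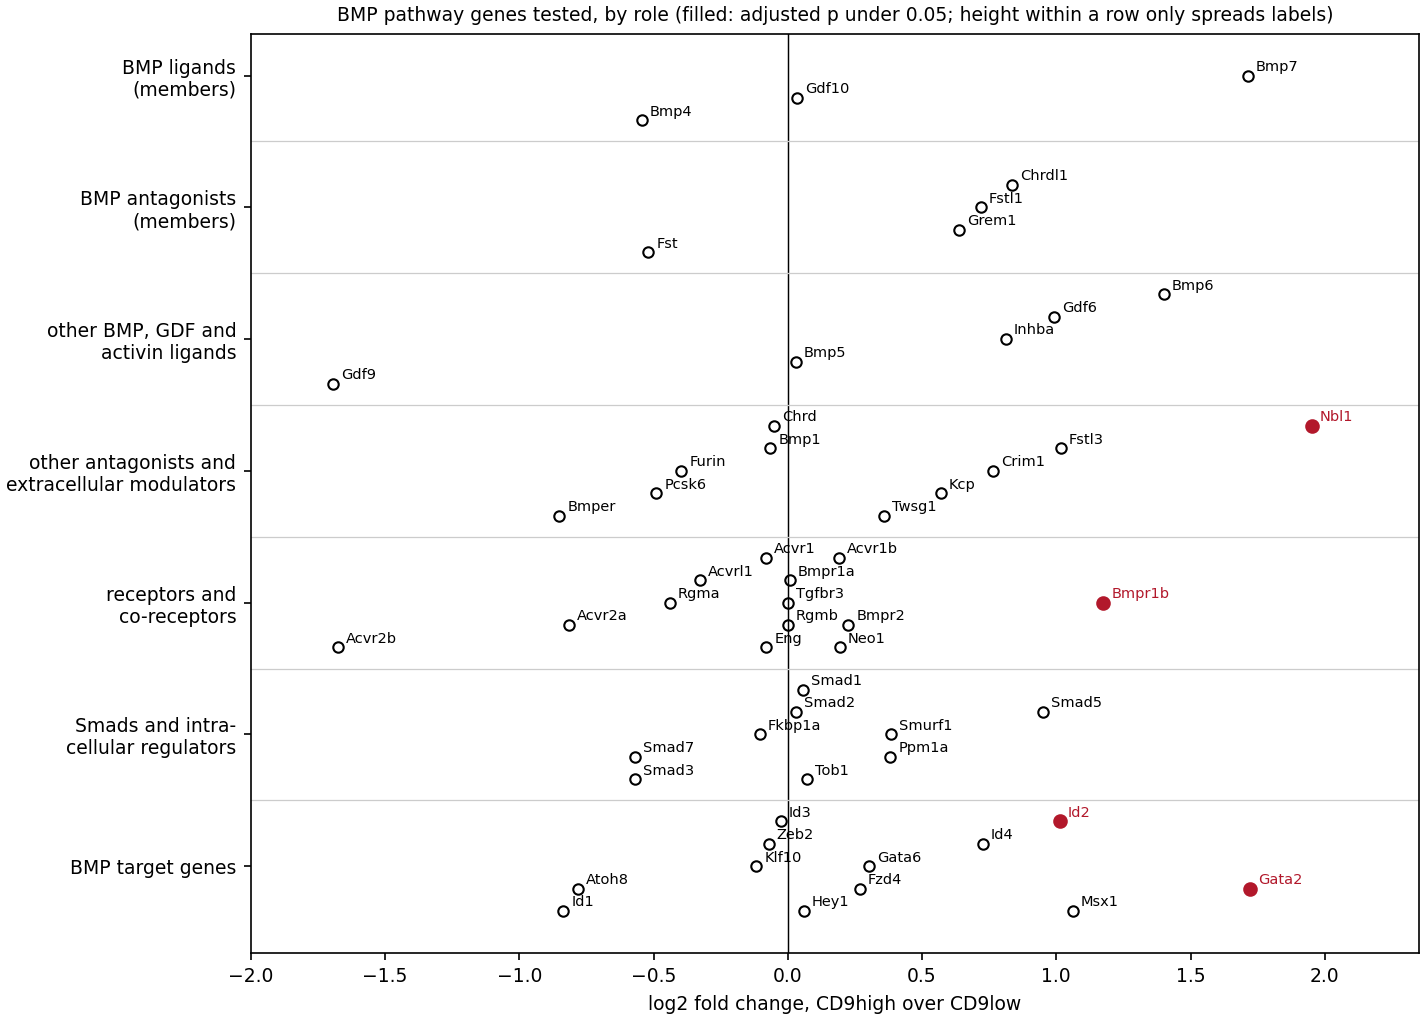
Log2 fold changes of CD9high over CD9low (x axis) for the 7 measured members and 49 other measured genes of the pathway, in rows by role; filled red points passed an adjusted p of 0.05. The 4 filled points, Nbl1, Bmpr1b, Gata2 and Id2, lie to the right of 0.

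Id2, which encodes an inhibitor of basic helix-loop-helix factors and is a known BMP target, read 8.78, 8.38, 8.55 and 8.64 in CD9high, against 7.64, 7.80, 7.36 and 7.49 in CD9low. The fractions did not overlap. The difference was 1.01 (SE 0.21, adjusted p = 0.0424), 0.97 within slide 1 and 1.15 on slide 2. The other 2 Id2 probes differed by 0.93 and 1.04 and did not pass over all probes (adjusted p of 0.588 and 0.0624). Over all probes the called probe did not pass either (adjusted p = 0.0565 by limma), so the call held in the gene fit only. Id1, the target most often used to read BMP signalling, differed the other way by -0.84 (adjusted p = 0.423), and Id3 by -0.03 (adjusted p = 0.985), while Id4 differed by 0.73 (adjusted p = 0.143). The measured differences of the Id genes did not share a sign, but the signs of Id1 and Id3 were not stable. Id1 differed by -1.13 within slide 1 and by 0.04 on slide 2, and Id3 by 0.04 without CD9low replicate 2.

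Gata2, a transcription factor that restrains fat cell differentiation, read 7.39, 6.35, 7.44 and 7.30 in CD9high, against 5.62, 5.89, 5.50 and 4.57 in CD9low. All CD9high arrays were higher, and replicate 2 had the smallest gap. The difference was 1.72 (SE 0.35, adjusted p = 0.0379), 1.39 within slide 1 and 2.73 on slide 2. Of the 12 measured target genes 2 rose, 0 fell and 10 missed the threshold, and the median difference was 0.16. Msx1, a homeobox target, differed by 1.06 (adjusted p = 0.107).

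Of 5 other measured ligands of the BMP, GDF and activin families, 0 passed the test by limma. At an unadjusted p under 0.05 there were 3 higher and 1 lower in CD9high, beside 10.7% of all genes in either direction, and Gdf6 among the 3 was kept through its CD9high arrays alone. The median difference was 0.81. Bmp6, a BMP closely related to Bmp7, read 8.75, 8.49, 8.17 and 7.85 in CD9high, against 7.43, 5.98, 7.34 and 6.92 in CD9low. The fractions did not overlap, and the difference was 1.40 (SE 0.35, adjusted p = 0.0874). Gdf6 was not above background on any CD9low array and, as a bound of the same kind, was at least 1.53-fold higher in CD9high. Its measured means were 5.39 in CD9high and 4.40 in CD9low (adjusted p = 0.107 by limma). Gdf9 differed by -1.69 (adjusted p = 0.168; -1.22 without CD9low replicate 2), Inhba, which encodes an activin subunit, by 0.81 (adjusted p = 0.437) and Bmp5 by 0.03 (adjusted p = 0.981). Of the 9 measured Smads and intracellular regulators 0 passed by limma, 1 had an unadjusted p under 0.05, and the median was 0.06. That one was Smad3, a mediator of TGF-beta and activin signals, at -0.57 (adjusted p = 0.326) with CD9high below CD9low on all arrays. The BMP mediator Smad1 differed by 0.06 (adjusted p = 0.961). Smad5, another BMP mediator, read 7.80, 8.57, 7.58 and 6.56 in CD9high, against 7.46, 4.24, 7.73 and 7.27 in CD9low. Its difference of 0.95 (adjusted p = 0.699) rested on CD9low replicate 2: without that array it was 0.14 (adjusted p = 0.975), and it was above 0 on slide 1 and -0.71 on slide 2. The inhibitory Smad7 differed by -0.57 (adjusted p = 0.534), and by -0.32 without CD9low replicate 2 (adjusted p = 0.728).

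**Figure D4:**
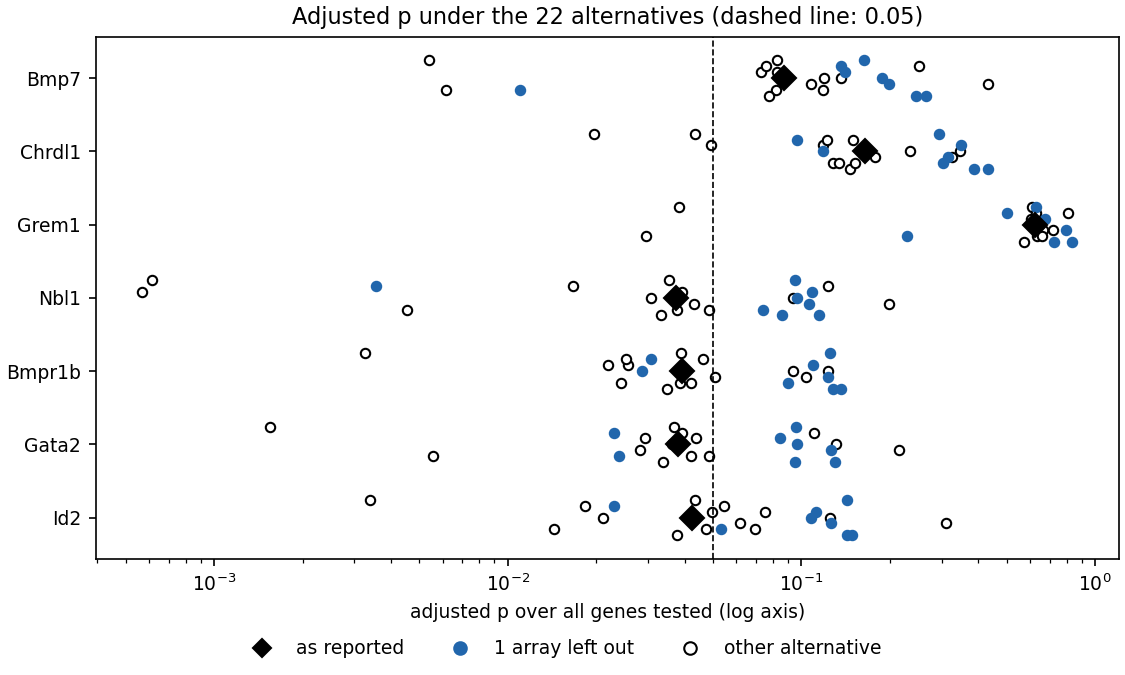
Adjusted p over all genes tested (x axis, log scale) for 3 members and the 4 called pathway genes, as reported (diamonds), with 1 array left out (blue) and under the other alternatives (open circles); the dashed line is 0.05. Bmp7 crosses the line to the left in 3 of 22 alternatives, Chrdl1 in 3 and Grem1 in 2, while Id2 crosses it to the right in 13.

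The plot of adjusted p under the alternatives shows how near the threshold these calls lay: of 22 alternatives, the call was lost in 10 for Nbl1, 10 for Bmpr1b, 9 for Gata2 and 13 for Id2.

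Genes with a pattern like that of the leading ligand and antagonist were ranked over the 8 arrays by the root mean square difference between profiles, each centred on its own mean. Of 10717 genes ranked, the nearest to Bmp7 were Fgf9, a fibroblast growth factor gene (0.37 log2 units), Csrp2, which encodes a LIM-domain protein (0.41), and 1700019D03Rik (0.41). Their own differences were 1.22 (adjusted p = 0.0995), 1.56 (adjusted p = 0.0379) and 1.89 (adjusted p = 0.00667). The nearest to Chrdl1 were Gask1a (0.17), Col4a6, a basement membrane collagen chain gene (0.17), and Slc6a6, the taurine transporter gene (0.18). Their differences were 0.71, 1.05 and 0.94, with adjusted p of 0.299, 0.102 and 0.0774. The ranking is a description of these 8 arrays.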

How the data were processed

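The authors deposited linear signal intensity values and a detection p-value for each of 45281 probes on 8 Illumina arrays, per the file headers. The submitters' processing notes name GenomeStudio, with its version not given in the sources used here. A background had already been subtracted (the median detection p of values within 0.5 of 0 was 0.434). A second deposited table of intensity values, nearly equal in distribution on all arrays, served only as an alternative. Per the labels' protocols, RNA was amplified before labelling, which adds noise for dim genes.

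The neqc steps of limma 3.58.1 (R 4.3.3) were applied (normexp background with the negative controls that the detection p-values imply, offset 16, quantile normalization, log2), which compresses differences of dim probes. Probes came from the platform annotation (34885 with 1 symbol, 18 with several, 10378 unnamed). A gene was its brightest kept probe. lmFit and eBayes compared 4 CD9high with 4 CD9low arrays, two-sided, with Benjamini-Hochberg adjustment over all genes or, for single probes, over all kept probes. The fits were tested on simulated data. No 2 arrays held identical values. The number of arrays limits precision.

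The test had no replicate block. Named genes are all members, called genes of each pathway list or its smallest p-values, genes needed to state small counts, and the 3 profiles nearest to the leading ligand and antagonist. The members and lists were chosen with earlier results of these data known. Alternatives covered background, normalization, offset, detection filter, probe choice, slide, replicate block, eBayes options, array weights and single arrays left out.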

Additional observations from a re-analysis of the deposited data

Results flagged for a closer look

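Of 26 sets of 4 arrays looked at (9 member probes and 4 called pathway genes in each fraction), 4 held an array far from the other 3, where chance gives about 1 in 20, and 3 of the 4 were CD9low replicate 2. On the dimmer Bmp4 probe that array read 4.40, against 6.67 to 6.82 on the other CD9low arrays. For Gdf10 it read 12.23, against 11.35 to 11.48. For Fstl1 it read 10.21, against 11.91 to 12.21. The remaining array was CD9high replicate 2, where Gata2 read 6.35, against 7.30 to 7.44 on the other CD9high arrays.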

How the results depend on the processing

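Over 22 alternatives, 21 planned and 1 chosen after the data had been seen (without replicate 2 of both fractions), Bmp7, Grem1, Chrdl1 and Fstl1 stayed above 0 and Bmp4 (brighter probe) and Fst below 0. The sign of Gdf10 turned with median centring (-0.020), on slide 1 alone (-0.064) and without CD9high replicate 4 or CD9low replicate 1, 3 or 4 (from -0.053 to 0.24 with single arrays left out), and that of the dimmer Bmp4 probe without CD9low replicate 2 (from -0.27 to 0.67 likewise); the cause was not tested. With single arrays left out, the genes called ran from 36 to 158 higher and 18 to 72 lower in CD9high, member genes and member probes from 0 to 1 higher each, and pathway genes from 0 to 4 higher and 0 to 1 lower. Slide 1 alone called 35 and 13 genes and 0 pathway genes, with 2 arrays fewer. With the replicate block, 56 genes were higher and 20 lower, 0 pathway genes passed, and Bmp7 had an adjusted p of 0.119; the numbers were not taken to pair the samples, since deviations from the fraction means correlated at 0.22, -0.10, 0.18 and 0.16 in the 4 same-numbered pairs, and not every array correlated best with its own number. Array weights called 275 and 147 genes, 3 member genes (Bmp7, Chrdl1 and Grem1), 4 member probes, and 2 pathway genes lower. Without replicate 2 of both fractions there were 190 and 80 genes, 2 member genes, 2 member probes and 1 pathway gene lower. Median centring called 32 genes lower and 2 pathway genes higher. Chrdl1 was the 1 member gene to pass with a detection p of 0.01 and with the mean of probes. The Chrdl1 probe ILMN_2661755 was the 1 member probe to pass without the second background correction and in the authors' normalized table. It was again the 1 to pass among probes above background on all 4 arrays of a fraction, and with robust trended eBayes. As this probe was kept through its CD9high arrays alone and could differ in 1 direction only, these passes are no support. Dim genes such as Chrdl1, Bmpr1b and Gdf6 lie near background in CD9low, which limits their folds to bounds, and an offset of 50 lowered Chrdl1 to 0.41 and Bmp7 to 1.04.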
